A study of Mus musculus with 12 samples.

Results

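The cells described here were sorted as intermediate cells from the aorta and its perivascular fat, and they are set against the progenitor cells and the smooth muscle cells (SMC) of the same series, taken as the 2 ends of a range. All mice were wild type CD-1 pups, 3 days old (P3), of mixed male and female sex, and no group carried a transgene or a treatment. Each population had 3 libraries, so 9 of the 12 libraries of the series enter, 3 intermediate and 6 at the ends, and the preadipocyte libraries were not used. Members were chosen by the label in the sample titles, and the question was where the intermediate cells stand outside the range that progenitor and smooth muscle cells span. The surface markers of the sort are not given in the labels, so the level of any gene among them may be set by the design. The labels do not tie the replicates to separate litters or sorting runs, so a p-value gauges the scatter among these libraries alone and that scatter may be technical.

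Perivascular fat lies around the aorta and shares a border with the adventitia, the outer layer of the vessel wall, where fibroblast-like progenitors positive for Pi16, Dpp4 and Ly6a reside. Smooth muscle cells of the media express contractile proteins and lay down elastic fibres and basement membrane. Hedgehog ligands bind Ptch1, which frees Smo and turns on the Gli transcription factors, and Ptch1, Hhip and Gli1 are themselves targets of the pathway. A mixture of progenitor and smooth muscle RNA would give each gene a level between both ends. A level above or below both ends is one that no such blend of the RNA in these libraries can give, and the bound is exact on CPM (counts scaled to a common library total) by library size. In sorted bulk samples, fewer cells of a type and less RNA per cell cannot be told apart.

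The 9 libraries held 11701825 to 17123109 counts, and a count of 0 allows at most 0.175 to 0.256 CPM. Levels below are CPM after TMM scaling (a scaling that centres most genes) unless stated, and order is always progenitor, intermediate, smooth muscle. TMM factors were 0.913 to 0.915, 0.867 to 0.896 and 1.22 to 1.25 in that order. Of 178 genes named, 48 share exon bases with another annotated gene, including Hhip, Gli1, Dpp4, Enpp2, Dio2, Tnc, Smpd3, Pi16, Pdgfra and Tagln, and because the use of strand in counting is not given in the sources used here, their counts are uncertain. Sums of marker lists moved with the groups. By library size alone, the 12 mesothelial markers summed to 109.5 to 237.7 CPM in progenitor, 29.3 to 93.5 in intermediate and 1830 to 2430 in smooth muscle libraries. The 15 Schwann and neuronal markers summed to 23.9 to 29.6, 31.5 to 43.3 and 1186 to 1524 CPM, and 1223 olfactory and vomeronasal receptor genes to 49.2 to 106, 133.2 to 345 and 773.8 to 1117 CPM. Of the defining mesothelial markers none was at 0: Msln was at 5.11 to 27.5 CPM, Upk3b at 4.1 to 22.6 and Wt1 at 2.61 to 3.53 in intermediate libraries. These sums were highest in the smooth muscle libraries, which are 1 end of every comparison below, and their part in the results was not tested.

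The labels were checked against known markers. Myh11, the smooth muscle myosin heavy chain, was at 1.63, 2.02 and 2.37 CPM in progenitor, 138.6, 110.5 and 72.6 in intermediate and 1239, 1165 and 858.4 in smooth muscle libraries. Acta2, smooth muscle actin, was at 22.9 to 36.1, 570.3 to 767.5 and 4941 to 5327 CPM, and Cnn1, calponin, at 2.74 to 3.97, 24.1 to 38.5 and 285.5 to 297.2 CPM. Pi16 ran the other way, at 796.1, 920.4 and 685.1 CPM in progenitor, 96.3, 88.8 and 105.2 in intermediate and 6.76, 9.04 and 12.9 in smooth muscle libraries. For these 4 genes the intermediate libraries lay between both ends with no overlap. Ly6a, the Sca-1 antigen, also lay between them on this scale, but close to the smooth muscle level. It was at 613.4 to 808 CPM in progenitor, 1.61 to 2.09 in intermediate and 0.856 to 1.52 in smooth muscle libraries. Pdgfra, the PDGF receptor alpha of mesenchyme, was at 268.6 to 313.2 CPM in intermediate libraries, against 469.1 to 537.1 and 29.0 to 38.3 CPM. Pparg, the master factor of fat cell differentiation, was at 49.3 to 55.6, 6.79 to 8.57 and 2.85 to 4.83 CPM, and Ucp1, the uncoupling protein of brown fat, at 3.45 to 6.15, 2.03 to 4.53 and 0.966 to 1.49 CPM. Tagln was low throughout, at up to 10.7 CPM in smooth muscle libraries.

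Genes of each end lay at different positions in intermediate libraries. A position of 0 was set at the progenitor level and 1 at the smooth muscle level, over 4036 genes that differed at least 4-fold between the ends. On the log2 scale the median position was 0.45, with quartiles of 0.26 and 0.62. In a blend, every gene has the same position on linear CPM by library size. Measured that way, the 465 genes higher in progenitor libraries had a median position of 0.77 (quartiles 0.39 and 0.97), so most of their excess was gone. The 3571 genes higher in smooth muscle libraries had a median of 0.18 (quartiles 0.07 and 0.29), so most of their excess had not been reached. Many of these 3571 are predicted genes with Gm or Rik names, and 109 of them reached 100 CPM at the higher end. With at least 100 CPM at the higher end the medians were 0.65 over 152 genes and 0.11 over 109 genes. By intermediate library, the first set stood at 0.77, 0.77 and 0.76. The second stood at 0.07, 0.19 and 0.19, with replicate 1 below the others. Intermediate replicate 1 also had the lowest olfactory and vomeronasal receptor sum, at 133.2 CPM against 286.2 and 345. A tie between that sum and the position was not tested. These positions are descriptions and carry no test.

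**Figure D1:**
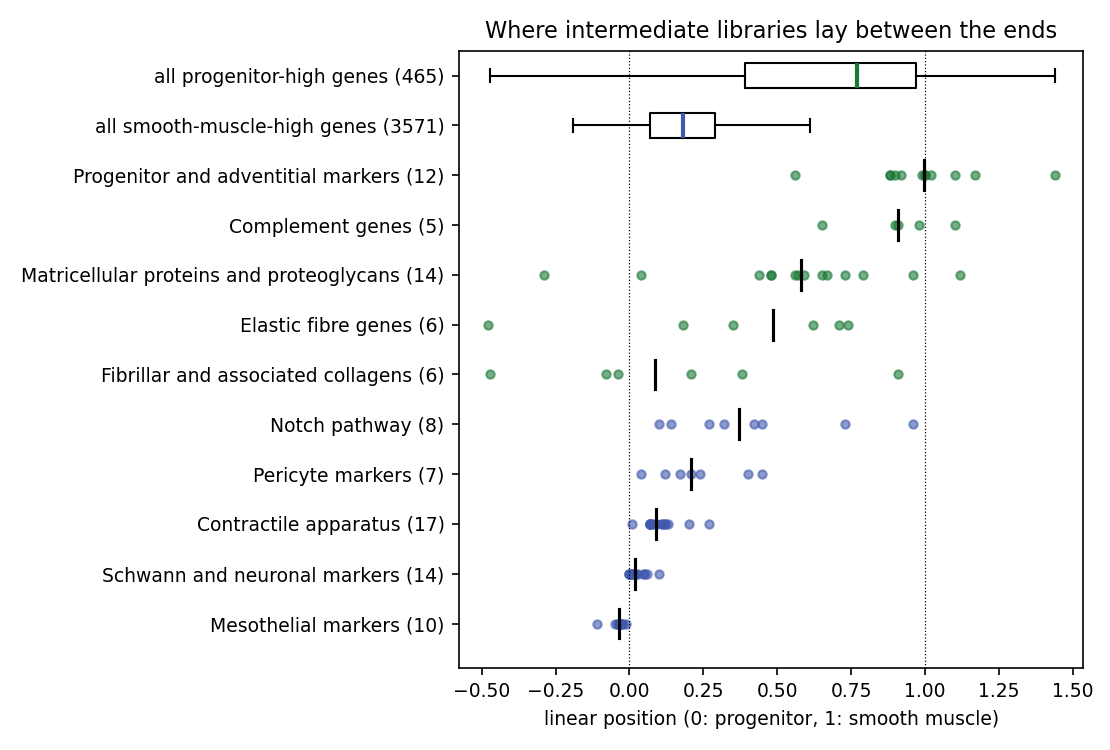
The horizontal axis is the position of the intermediate mean on linear CPM by library size, with 0 at the progenitor level and 1 at the smooth muscle level. Each row is a group of genes that differ at least 4-fold between the ends, with the number of genes in parentheses, the vertical bar being the median. Points are single genes, and the boxes of all genes show quartiles with whiskers to 1.5 interquartile ranges. Progenitor markers lie near 1 (median 0.99) while contractile genes (0.09) and mesothelial markers (-0.03) lie near 0.

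Lists moved over different distances. The 12 progenitor and adventitial markers with a 4-fold difference had a median position of 0.99, and 5 complement genes 0.91. In the median, most of their progenitor excess was thus gone. Proteoglycans and matricellular genes higher in progenitor libraries stood at 0.58 over 14 genes, elastic fibre genes at 0.48 over 6, and fibrillar collagens at 0.09 over 6 that were spread from -0.47 to 0.91. Among genes higher in smooth muscle, 17 contractile genes had a median of 0.09 and 8 Notch pathway genes 0.37. Heyl, a Notch target, had all but reached the smooth muscle end at 0.96. Of 7 pericyte markers the median was 0.21, with Notch3 at 0.45 and Rgs5 at 0.40. The 14 Schwann and neuronal markers stood at 0.02 and the 10 mesothelial markers at -0.03, far from the smooth muscle level. A linear position near 0 or 1 does not mean an equal level. Pi16, 1 of the 12 progenitor markers, still had a mean of 96.8 CPM in intermediate against 9.57 in smooth muscle libraries. Over all tested members of the Schwann and neuronal list and the mesothelial list, the median log2 differences from progenitor were 2.35 and -1.33.

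Of 20122 genes tested, 516 were called above both ends, which is 2.56% of the genes, and 495 below both ends, or 2.46%. A gene counted when intermediate libraries differed in the same direction from progenitor and from smooth muscle libraries by edgeR's quasi-likelihood test, taking the larger of both p-values and adjusting over all genes at 0.05. Both comparisons share the intermediate libraries. At least 2-fold from the nearer end were 157 of the genes above and 231 of the genes below. The 3 intermediate libraries did not overlap the 6 others in 514 of the 516 and 494 of the 495. The call itself makes overlap rare, so these counts add no support to it. The ends themselves were not called different for 204 genes above and 208 below. Progenitor libraries were the higher end for 197 of the genes above and smooth muscle libraries for 115. Scaling by library size alone shifted the median log2 difference from the midpoint by -0.26 and that from smooth muscle by -0.48. On that scale 308 genes (1.53%) lay above and 1993 (9.9%) below. Of the 516, 304 stayed above under that scaling, and all 495 stayed below. The bound on a blend is exact on that scale alone, so for the rest of the 516 a level outside a blend is not shown. Without intermediate replicate 2, 376 lay above and 323 below. In a fit that adds the preadipocyte libraries to the estimate of spread, 233 lay above and 260 below, and of the named genes Agtr1a, Aldh1a2, Ccl2, Cd3e, Cd55, Cxcl14, Disp1, Erg, Fasn, Fosb, Hapln1, Hes1, Igf2r, Insig1, Loxl1, Ndufa4l2, Rara, Rxra, Skil, Snai1, Tbx18 and Tgfb1 were among those no longer called.

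**Figure D2:**
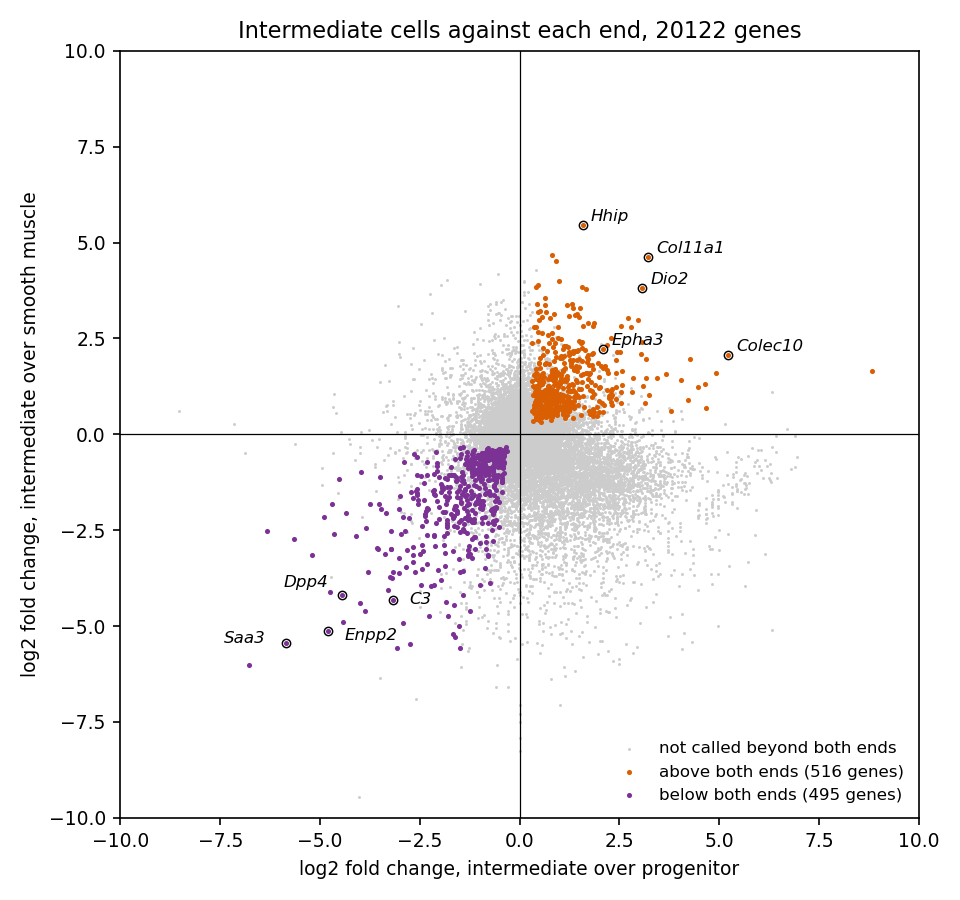
Each point is 1 gene, with the log2 fold change of intermediate over progenitor libraries on the horizontal axis and over smooth muscle libraries on the vertical axis. Genes called above both ends (516) lie at upper right and genes called below both ends (495) at lower left.

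The genes beyond both ends were mostly protein coding, 95.5% of those above and 96.8% of those below, against 78.2% of all genes tested. Median exon length was 5.8 kb above, 3.89 kb below and 3.75 kb over all genes. The X chromosome held 4.07%, 2.83% and 3.13% in the same order.

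Several Hedgehog target and effector genes stood above both ends. Of 15 tested members 4 were called above (Ptch1, Gli1, Gli2 and Hhip) and 1 below (Disp1), and the list's median difference was 0.23 from progenitor and 0.42 from smooth muscle on the log2 scale, against 0.04 and -0.08 over all genes. Over all genes tested 2.56% were above and 2.46% below. Library size alone gave the same 4 and 1, beside 1.53% and 9.9% of all genes. The sequences just before 1 start site each of 3 of these genes are shown because they moved together, and 2 genes far below both ends follow. Gli1 is not shown. These 5 are examples and do not stand for all genes above or below both ends. The windows are RefSeq windows of 250 bases on GRCm38.p6 (mm10), 5′ to 3′ on the strand of the gene, with GGGCGG or TATAAA in capitals where found on either strand. That of Ptch1 precedes a start inside the annotated gene, whose 5′ end is at base 63573598, and the sequence before that end is not shown.
Ptch1, chr13:63565736-63565985, minus strand: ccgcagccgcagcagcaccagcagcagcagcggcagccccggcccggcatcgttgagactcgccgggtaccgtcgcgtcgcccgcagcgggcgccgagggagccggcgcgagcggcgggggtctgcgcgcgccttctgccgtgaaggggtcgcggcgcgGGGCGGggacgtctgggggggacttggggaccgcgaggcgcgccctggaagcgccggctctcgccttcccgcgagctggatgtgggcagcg
Hhip, chr8:80058009-80058258, minus strand: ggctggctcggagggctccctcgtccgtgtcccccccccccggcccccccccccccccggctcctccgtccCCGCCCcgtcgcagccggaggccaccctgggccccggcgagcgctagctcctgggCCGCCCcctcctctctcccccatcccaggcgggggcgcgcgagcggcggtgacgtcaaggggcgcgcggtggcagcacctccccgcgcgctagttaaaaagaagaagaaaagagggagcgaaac
Gli2, chr1:119053620-119053869, minus strand: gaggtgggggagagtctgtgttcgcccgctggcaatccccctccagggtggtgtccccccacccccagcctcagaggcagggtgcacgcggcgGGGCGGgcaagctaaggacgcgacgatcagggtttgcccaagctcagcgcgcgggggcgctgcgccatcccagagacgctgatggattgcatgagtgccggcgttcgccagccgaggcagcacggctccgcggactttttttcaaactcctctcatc
Dpp4, chr2:62412232-62412481, minus strand: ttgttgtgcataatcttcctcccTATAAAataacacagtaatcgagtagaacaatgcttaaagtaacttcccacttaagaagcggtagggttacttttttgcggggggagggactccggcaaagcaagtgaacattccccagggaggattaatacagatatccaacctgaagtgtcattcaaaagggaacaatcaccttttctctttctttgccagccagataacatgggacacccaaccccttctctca
Cxcl13, chr5:95956689-95956938, plus strand: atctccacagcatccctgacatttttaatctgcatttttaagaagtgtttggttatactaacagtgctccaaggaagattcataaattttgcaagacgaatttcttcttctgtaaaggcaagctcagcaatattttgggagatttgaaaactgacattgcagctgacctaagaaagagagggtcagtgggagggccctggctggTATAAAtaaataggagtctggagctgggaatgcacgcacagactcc
The windows of Ptch1 and Gli2 hold 1 GGGCGG each and that of Hhip 2, a motif in 32.7% of all 32851 promoter windows of this length and in 51% of the 16704 windows of genes tested. Those of Dpp4 and Cxcl13 hold 1 TATAAA each, found in 12.4% of all windows and 7.81% of those of genes tested, and no GGGCGG. GACCACCCA, the Gli motif, is in 0.225% of all windows, 0.186% of those of genes tested and in none of these 5. Windows of all genes above both ends held GGGCGG in 62.4%, TATAAA in 6.37% and GACCACCCA in 0.616%. Those of all genes below both ends held them in 52.4%, 8.7% and 0%, so a lack of GGGCGG was not a trait of that class. A match is a description of letters and does not mark a site in use.

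Ptch1, the Hedgehog receptor, was at 25.1, 35 and 24.2 CPM in progenitor, 91, 92.4 and 100.9 in intermediate and 32.8, 32.1 and 30.5 in smooth muscle libraries. All 3 intermediate libraries stood far above the other 6, by 1.75 ± 0.13 (SE) over progenitor and 1.58 ± 0.13 over smooth muscle on the log2 scale (adjusted p = 8.36e-07). Hhip, a membrane protein that binds and sequesters the ligands, was at 211.4, 189.6 and 177.5, then 544.9, 594.5 and 591.4, then 11.4, 14 and 14 CPM. Its excess over the nearer, progenitor end was 1.58 ± 0.10 (adjusted p = 4.30e-08), and its linear position of -2.09 puts it on the far side of progenitor. Gli1, the transcriptional effector and target, was at 25.7 to 35.1, 70.7 to 77.8 and 6.28 to 7.27 CPM, higher by 1.31 ± 0.12 than in progenitor libraries. Gli2, the main activator upstream of Gli1, was at 26.2 to 29.5, 54 to 61.2 and 16.1 to 24 CPM. Neither group overlapped the intermediate libraries for these genes. Smo, the signal transducer, was at 171.5 to 187.7, 196.8 to 216.5 and 109.5 to 134.9 CPM and was not called. Disp1, needed for ligand release, was lower at 15.1 to 17.2 CPM than in progenitor (40.4 to 46.4) and smooth muscle (19.2 to 25.5). Its call was lost without any 1 of 6 libraries (intermediate 1, 2 or 3, progenitor 3, smooth muscle 1 or 2), at -0.41 to -0.55 from the nearer end.

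Each of 6 lists of extracellular matrix genes had members above both ends. Over all genes tested 2.56% were above and 2.46% below. Of 19 fibrillar and associated collagens 8 were above and 2 below. Of 20 basement membrane genes 6 were above and none below, of 24 matricellular and proteoglycan genes 5 were above and none below, and of 20 elastic fibre genes 5 were above and 2 below. Cartilage and tendon genes had 5 above and 1 below of 25, and matrix proteases and inhibitors 3 above and none below of 22. With library size alone the counts above were 6, 4, 5, 3, 3 and 3 in that order, beside 1.53% of all genes. Median log2 differences from progenitor were 0.12, 0.70, -0.58, 0.21, 0.70 and -0.03 in that order, against 0.04 over all genes. From smooth muscle they were 1.77, 0.08, 1.66, 1.04, -0.11 and 0.35, against -0.08. The middle matricellular gene thus lay under its progenitor level, and the middle cartilage and tendon gene under its smooth muscle level. From the midpoint the medians were 1.12, 0.28, 0.51, 0.70, 0.33 and 0.26, against 0.00.

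Col11a1, a minor fibrillar collagen chain best known from cartilage, had the largest excess among the 15 genes named above both ends. It was at 34.3, 29.4 and 37.2 CPM in progenitor, 307.9, 322.7 and 310 in intermediate and 15.7, 11.9 and 10.4 in smooth muscle libraries. The excess was 3.22 ± 0.13 over progenitor and 4.63 ± 0.14 over smooth muscle (adjusted p = 5.45e-10). Col1a1, the main chain of type I collagen, was abundant at both ends and more so between them. Its levels were 22063, 21229 and 23650, then 62281, 67349 and 60898, then 6281, 6305 and 6929 CPM, an excess of 1.51 ± 0.08 over progenitor. Col16a1, which associates with fibrils, was at 644.4 to 714.7, 1851 to 1978 and 222.6 to 237 CPM. Col6a3, a chain of the microfibrillar type VI collagen, was at 668.8 to 726.1, 1804 to 2275 and 350.1 to 407.9 CPM. Col12a1 was at 239.9 to 266.1, 584.8 to 671.8 and 285.1 to 298.4 CPM, with the ends close to each other. In each of these 5 genes no intermediate library overlapped an end.

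The type IV collagens, the network of basement membranes, came in gene pairs. Col4a1 and Col4a2 lie head to head on chromosome 8, with starts 21 bases apart, and Col4a5 and Col4a6 on the X chromosome 1343 bases apart. Col4a1 was at 717.4, 648.7 and 682 CPM in progenitor, 3373, 3501 and 3057 in intermediate and 1832, 1755 and 1469 in smooth muscle libraries. Here smooth muscle was the nearer end, exceeded by 0.97 ± 0.09 (adjusted p = 3.94e-06), and Col4a2 exceeded it by 1.15 ± 0.10. Exons of these 2 genes overlap. Per kilobase of exon, the intermediate means were 443.5 CPM for Col4a1 and 338.3 CPM for Col4a2. Col4a5 was at 21.2 to 25.4, 166.9 to 228.1 and 98.4 to 137.6 CPM, and it was no longer called with library size alone. Lama2, the laminin alpha 2 chain, was at 142.5 to 178.8, 310.7 to 398.3 and 69.7 to 78.3 CPM.

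Tnc, tenascin C, a matricellular protein of developing and remodelling tissue, was at 57.7, 32.7 and 48 CPM in progenitor, 1165, 1225 and 1078 in intermediate and 524.1, 510.3 and 374.6 in smooth muscle libraries. The excess over smooth muscle, the nearer end, was 1.30 ± 0.16 (adjusted p = 6.28e-05) and that over progenitor 4.65 ± 0.19. Thbs2, thrombospondin 2, was at 1337 to 1599, 2741 to 3217 and 621.2 to 857.8 CPM. Bgn, biglycan, was at 1798 to 1815, 3082 to 3471 and 975 to 1085 CPM. Among elastic fibre genes, Ltbp2, a latent TGF-beta binding protein, was at 79.1 to 88.6, 379 to 440.2 and 152.3 to 208.1 CPM and Loxl1, a crosslinking oxidase, at 288.4 to 326.4, 625.3 to 683.4 and 350.1 to 427 CPM. Loxl1 was not called with library size alone. Eln, elastin itself, lay between the ends at 4141 to 4751, 15778 to 19118 and 50908 to 64848 CPM. Efemp1, fibulin-3, was the other way at 181.3 to 251.9, 10.7 to 21.4 and 157.5 to 200.6 CPM, among the largest deficits described below. Among proteases, Mmp14, a membrane-bound metalloproteinase, was at 883.2 to 895.7, 1581 to 1740 and 556 to 602.7 CPM and Adamts2, the procollagen N-proteinase, at 1096 to 1227, 2078 to 2161 and 629.5 to 698.1 CPM. Tnmd, tenomodulin of tendon, was at 5.95 to 8.22, 35.7 to 45 and 16.1 to 24.3 CPM, with its call lost with library size alone (0.44 from the nearer end), and Hapln1, a hyaluronan link protein, at 7.7 to 11.8, 19 to 23.3 and 6.04 to 9.23 CPM. Matn4, a matrilin, was below both at 2.61 to 3.67 CPM.

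**Figure D3:**
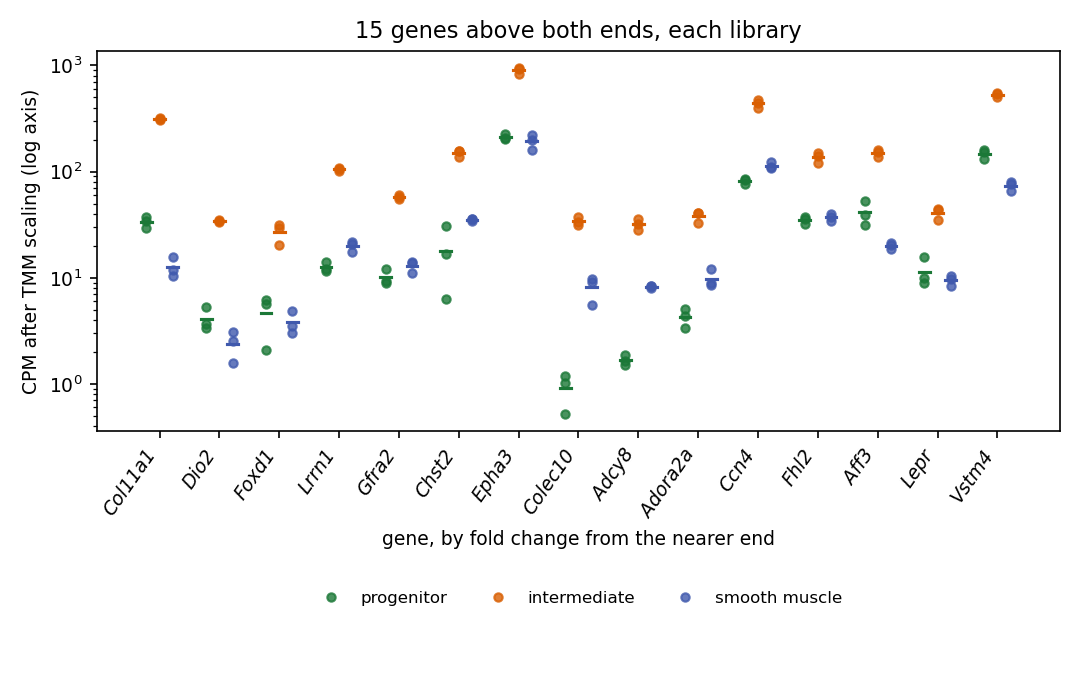
CPM after TMM scaling on a log axis for the 15 genes with the largest excess over the nearer end among those with a mean of at least 16 CPM in intermediate libraries, no overlap of libraries and a call with library size alone, 1 point per library, coloured by population. In each gene the 3 intermediate points lie above the other 6, as for Col11a1 at 307.9 to 322.7 CPM against at most 37.2.

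Guidance, adhesion and growth factor lists also had members above both ends. Their counts stand beside 2.56% of all genes above and 2.46% below. Axon guidance genes had 6 above and none below of 25, among them Epha3, an ephrin receptor, at 223.9, 205.4 and 203.8, then 924.3, 944.5 and 829.5, then 197, 222.4 and 159.6 CPM. Its excess was 2.09 ± 0.11 and 2.22 ± 0.11 (adjusted p = 8.34e-09), with the ends level and every intermediate library above them. Unc5b, a netrin receptor, was at 10.4 to 11.7, 77.5 to 80.4 and 27.5 to 30.1 CPM, and its ligand gene Ntn1 at 90.9 to 98.8, 221.7 to 239 and 62.8 to 66.4 CPM. Slit2, a repulsive guidance ligand, was at 59.9 to 75.7, 143.2 to 174 and 49.8 to 68.2 CPM. For these 4 genes no intermediate library overlapped an end. Integrin, cadherin and adhesion genes had 5 above and 1 below of 23. Itga11, a collagen-binding integrin, was at 40.2 to 44.2, 91.1 to 94.1 and 42.5 to 56 CPM, Cdh4 at 13 to 14.4, 34.8 to 39.2 and 8.55 to 11.9, and Itgb3 was lower at 36.3 to 45.7 CPM against 71.8 to 88.9 and 111.2 to 159.5.

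FGF signalling genes went both ways, with 3 above and 3 below of 20, beside 2.56% and 2.46% of all genes. Spry1 and Dusp6, feedback inhibitors of the pathway, were at 92.2 to 179.3 and 79.3 to 98.1 CPM in intermediate libraries, against 32.6 to 40.6 and 36.1 to 39.7 in progenitor and 34.4 to 57.9 and 49.3 to 50.8 in smooth muscle libraries. Etv5, a transcription factor often induced by FGF, was lower at 9.29 to 9.48 CPM against 18.9 to 20.2 and 18.6 to 19.1, and the ligand gene Fgf1 was at 0.958 to 3.46 CPM against 10.6 to 15.9 and 19 to 35. Wnt genes had 4 above and 2 below of 37. Ror2, a Wnt5a receptor, was at 37.7 to 46.5, 84.3 to 93.5 and 19.1 to 24.8 CPM and Dkk3 at 451.2 to 478.4, 741.7 to 757.8 and 296 to 358.9. Nkd1, an inducible Wnt antagonist, was lower at 14.4 to 17.6 CPM against 36.6 to 50.8 and 91.7 to 93.7, and Rspo1, an agonist that mesothelium also expresses, at 2.96 to 5.67 CPM against 13.6 to 24.1 and 56.1 to 76.1.

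The counts of the lists that follow are small and are to be read beside the 2.56% of all genes above and 2.46% below. PDGF and IGF genes had 2 above and 2 below of 18. Igfbp5 and Igfbp6, secreted IGF-binding proteins, were lower, Igfbp5 at 77.1 to 105.4 CPM against 307.5 to 355 and 619.3 to 763.2, and Igfbp6 at 15.7 to 21.5 CPM against 162.1 to 174.9 and 119.5 to 187.3. Igf2r and Igfbp7 were higher, Igfbp7 at 1568 to 1719 CPM against 739.5 to 1000 and 988.9 to 1047, but neither was called with library size alone. TGF-beta and BMP genes had 2 above and 1 below of 30, the latter a share near that over all genes. Tgfb1, the ligand, was at 7.37 to 8.75, 25.5 to 30.5 and 17.2 to 18.7 CPM. Skil, a feedback repressor, was at 121.2 to 188.3, 223.9 to 263.4 and 117.3 to 145.8 CPM. Neither call held with library size alone, under which 5 members lay below, as did 9.9% of all genes. Bmp7 was at 25 to 27.4, 0.435 to 1.1 and 5.81 to 6.62 CPM. Of 18 Notch genes only Hes1, a target, was called above at 83.3 to 92.2 CPM against 40 to 68.8 and 43 to 51, and it was lost with library size alone. Heyl reached 328.1 to 362.6 CPM against 29.6 to 40 and 210.2 to 290.7 with an adjusted p of 0.0621.

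Mesenchymal transcription factors had 5 above and 2 below of 31, beside 2.56% and 2.46% of all genes. Foxd1, a forkhead factor of stromal progenitors, was at 2.08, 6.13 and 5.63, then 29.5, 31.3 and 20.4, then 4.9, 3.54 and 3.05 CPM. The excess was 2.54 ± 0.28 over progenitor and 2.82 ± 0.28 over smooth muscle (adjusted p = 1.63e-05), with no overlap. Runx2, known from bone formation, was at 1.78 to 2.28, 4.49 to 5.92 and 1.17 to 2.1 CPM, Snai1 at 5.05 to 7.7, 14.2 to 15.3 and 3.18 to 5.22, and Zeb2 at 143.3 to 163.7, 227.6 to 266.4 and 109.7 to 139.2. Snai1 and Zeb2 are repressors known from epithelial to mesenchymal transition.

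The other genes named for the size of their excess had varied roles. Dio2, which converts thyroxine to active thyroid hormone and is known from brown fat, was at 3.63, 5.29 and 3.33, then 34.7, 33.3 and 34.2, then 2.55, 3.06 and 1.56 CPM, an excess of 3.06 ± 0.19 over progenitor (adjusted p = 4.30e-08). Adcy8, an adenylyl cyclase, was at 1.5 to 1.86, 28.3 to 35.9 and 8.01 to 8.35 CPM, and Adora2a, an adenosine receptor, at 3.33 to 5.11, 32.9 to 41 and 8.49 to 12.1 CPM. Lepr, the leptin receptor, was at 8.87 to 15.6, 34.8 to 44.7 and 8.28 to 10.4 CPM, and Gfra2, a co-receptor for GDNF family ligands, at 8.96 to 12.1, 55.7 to 60.3 and 11.1 to 14.2. Ccn4, a matricellular protein, was at 76.9 to 84.8, 396.7 to 473.8 and 107.4 to 123.3 CPM. Fhl2, a LIM-domain cofactor, was at 31.8 to 37.4, 119.3 to 149.2 and 34.3 to 40.2 CPM. Lrrn1, Chst2, Colec10, Aff3 and Vstm4 made up the 15. All 15 were called under each alternative run gene by gene, which did not include glmTreat or each comparison at its own adjusted p. The 15 were picked for a call with library size alone, no overlap of libraries and the largest change. Their call with library size was thus fixed by the choice, and the other calls add little support. Chst2, a sulfotransferase, had the widest spread at the progenitor end, 6.3, 30.9 and 16.9 CPM, against 136.7 to 155.4 in intermediate libraries.

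Genes below both ends included progenitor markers, inflammatory genes and genes of glycolysis. Of 22 progenitor markers 8 were below both and none above, with a median of -2.91 from progenitor and -0.11 from smooth muscle. Of 14 complement genes 3 were below, of 20 cytokines and chemokines 3, of 16 interferon response genes 2, of 22 glycolysis and hypoxia genes 7 and of 28 oxidative phosphorylation genes 3, with none above in any of these lists. Among the interferon genes, Bst2 lost its call without intermediate 2 or 3 or progenitor 1 or 3 (-0.68 to -0.95 from the nearer end). Cox6c lost its call when any 1 library other than smooth muscle 1 was left out (-0.28 to -0.41). Cox7c lost its call without intermediate 2 (-0.52). Over all genes tested 2.46% were below. With library size alone the counts below were 9, 5, 5, 4, 11 and 24, a scale on which 9.9% of all genes lay below. Oxidative phosphorylation moved most. Mesothelial markers had 3 of 12 below both (Wt1, Krt19 and Rspo1) and all 12 below the midpoint, at the sums given above. Progenitor replicate 3 and intermediate replicate 1 had the highest mesothelial sums of their groups, at 237.7 and 93.5 CPM. The part of mesothelial RNA in the level of the genes below both ends was not tested.

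Enpp2, which encodes autotaxin, the enzyme that makes lysophosphatidic acid, had the smallest adjusted p of all genes tested. It was at 203.7, 241.9 and 204.3 CPM in progenitor, 7.28, 8.35 and 7.4 in intermediate and 242.8, 281 and 288.9 in smooth muscle libraries. The deficit was -4.81 ± 0.13 and -5.14 ± 0.13 (adjusted p = 1.69e-12), and the 3 intermediate libraries were nearly alike while both ends stood together far above them. Dpp4, a surface peptidase and progenitor marker, was at 83.8, 89 and 94, then 5.42, 3.17 and 3.57, then 69.1, 83.2 and 68.5 CPM, a deficit of -4.46 ± 0.17 and -4.19 ± 0.17 (adjusted p = 4.60e-10). Because the gates are not given, Dpp4 may have been part of the sort. Cd55, a complement regulator and progenitor marker, was at 107.6 to 120.7, 3.66 to 6.27 and 8 to 13.9 CPM. Smpd3, a neutral sphingomyelinase, was at 47 to 55.7, 4.7 to 7.2 and 56.9 to 59.5 CPM, Anxa3 at 156.8 to 169.4, 44.2 to 53.3 and 126.1 to 141.5, and Efhd1 at 19.1 to 21.9, 1.13 to 1.51 and 22.8 to 30.1. Gap43, a growth cone protein, was at 80.9 to 99.1, 8.19 to 10.8 and 123.2 to 176 CPM.

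Saa3, an acute phase protein, was at 15.9, 19.8 and 35.3 CPM in progenitor, 0.169, 0.216 and 0.871 in intermediate and 12.3, 18.1 and 23.3 in smooth muscle libraries. Its deficit of -5.85 ± 0.46 and -5.44 ± 0.47 was the largest of the 15 named below both ends. Complement C3 was at 358.7, 366.6 and 618.9, then 96.5, 22.4 and 29.4, then 884.1, 949.8 and 1110 CPM, a deficit of -3.18 ± 0.39 from progenitor (adjusted p = 6.28e-05). In both genes progenitor replicate 3 was the highest of its group, as for the mesothelial sum, and C3 was highest in intermediate replicate 1, again as for that sum. Saa3 was highest in intermediate replicate 3, unlike that sum, but at 0.871 CPM or less its order there rests on few counts. A tie of these 2 genes to that sum was not tested. C4b was at 189.2 to 203.6, 14.1 to 25.3 and 77.5 to 82 CPM, and Clu, the chaperone clusterin, at 63.7 to 74.6, 6.97 to 17.2 and 122.3 to 159.1. Cxcl13, a chemokine that draws B cells, was at 52.9, 77.1 and 89.1, then 3.81, 2.52 and 1.83, then 44.5, 46.6 and 49.7 CPM, a deficit of -4.11 ± 0.23 from the nearer end (adjusted p = 1.04e-08). Ccl2, which draws monocytes, was lower at 100.2 to 129.9 CPM than in progenitor (636.4 to 813.7) and smooth muscle libraries (155.5 to 223.3). The call on Ccl2 was lost without intermediate replicate 2 (-0.45 from smooth muscle) or smooth muscle replicate 3 (-0.38). Cxcl14 was at 0 in all 3 intermediate libraries and at 0.271 to 1.11 CPM in the others, a difference no longer called without intermediate replicate 2 (fitted log2 -6.00, which depends on the prior count) or smooth muscle replicate 2 (-5.13). Tlr2, an innate receptor, was at 22.6 to 28.5, 3.48 to 4.57 and 33.4 to 49.3 CPM. Ptgs1 and Ptger3, a prostaglandin synthase and a prostaglandin E2 receptor, were at 1.92 to 3.98 and 4.01 to 6.01 CPM in intermediate libraries, against 29.7 to 31.6 and 33.3 to 38.5 in progenitor and 22.7 to 31.3 and 24.8 to 29.4 in smooth muscle libraries.

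**Figure D4:**
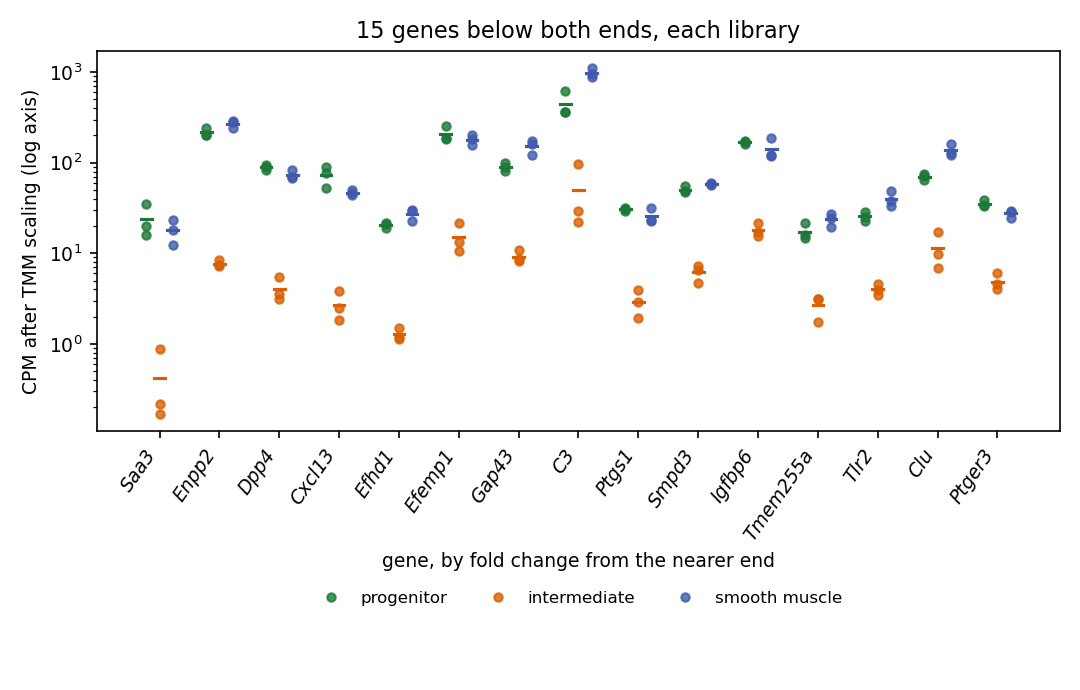
CPM after TMM scaling on a log axis for the 15 genes with the largest deficit from the nearer end among those with a mean of at least 16 CPM at both ends, no overlap of libraries and a call with library size alone, 1 point per library, coloured by population. In each gene the 3 intermediate points lie below the other 6, as for Enpp2 at 7.28 to 8.35 CPM against at least 203.7.

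Glucose handling genes below both ends included Slc2a1, the glucose transporter GLUT1, at 27.7 to 36.5, 15.1 to 20.3 and 29.2 to 37.3 CPM. Gpi1, a glycolytic isomerase, was at 117.1 to 145.8, 61.3 to 73.8 and 126.7 to 163.3 CPM and Pfkp, a phosphofructokinase, at 45.5 to 57.8, 30.4 to 36 and 123 to 134.4. For Slc2a1 and Gpi1 both ends were at a like level and the intermediate libraries at -0.91 to -1.09 from either on the log2 scale. Ndufa4, a respiratory chain subunit, was at 182 to 199.9, 85.8 to 99.8 and 122.9 to 165.6 CPM. Retinoid metabolism had 2 above and 2 below of 15, beside 2.56% and 2.46% of all genes. All 4 of these genes lost their call without at least 1 library. Rara, a retinoic acid receptor, was at 39.5 to 45.7 CPM against 28.8 to 33.5 and 23.2 to 24.1, with its call lost without intermediate 1 or 3 or progenitor 1 or 3 (0.37 to 0.43 from the nearer end). Rxra overlapped, with 34.1 CPM in intermediate replicate 3 and 43.3 in smooth muscle replicate 1, and missed the threshold without intermediate 1 or 2 or smooth muscle 2 or 3 (0.79 to 0.86), and also with library size alone and with DESeq2. Aldh1a2, the retinoic acid producing enzyme that mesothelium expresses, was at 3.11 to 10.4, 1.48 to 3.22 and 76.3 to 83.8 CPM, and missed the threshold without intermediate 2 (-1.44) or progenitor 3 (-1.06). Stra6, a retinol transporter, was at 1.34 to 2.3, 0.339 to 0.792 and 3.32 to 3.72 CPM and missed the threshold without intermediate 1 or progenitor 1 or 2 (-1.30 to -1.48).

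**Figure D5:**
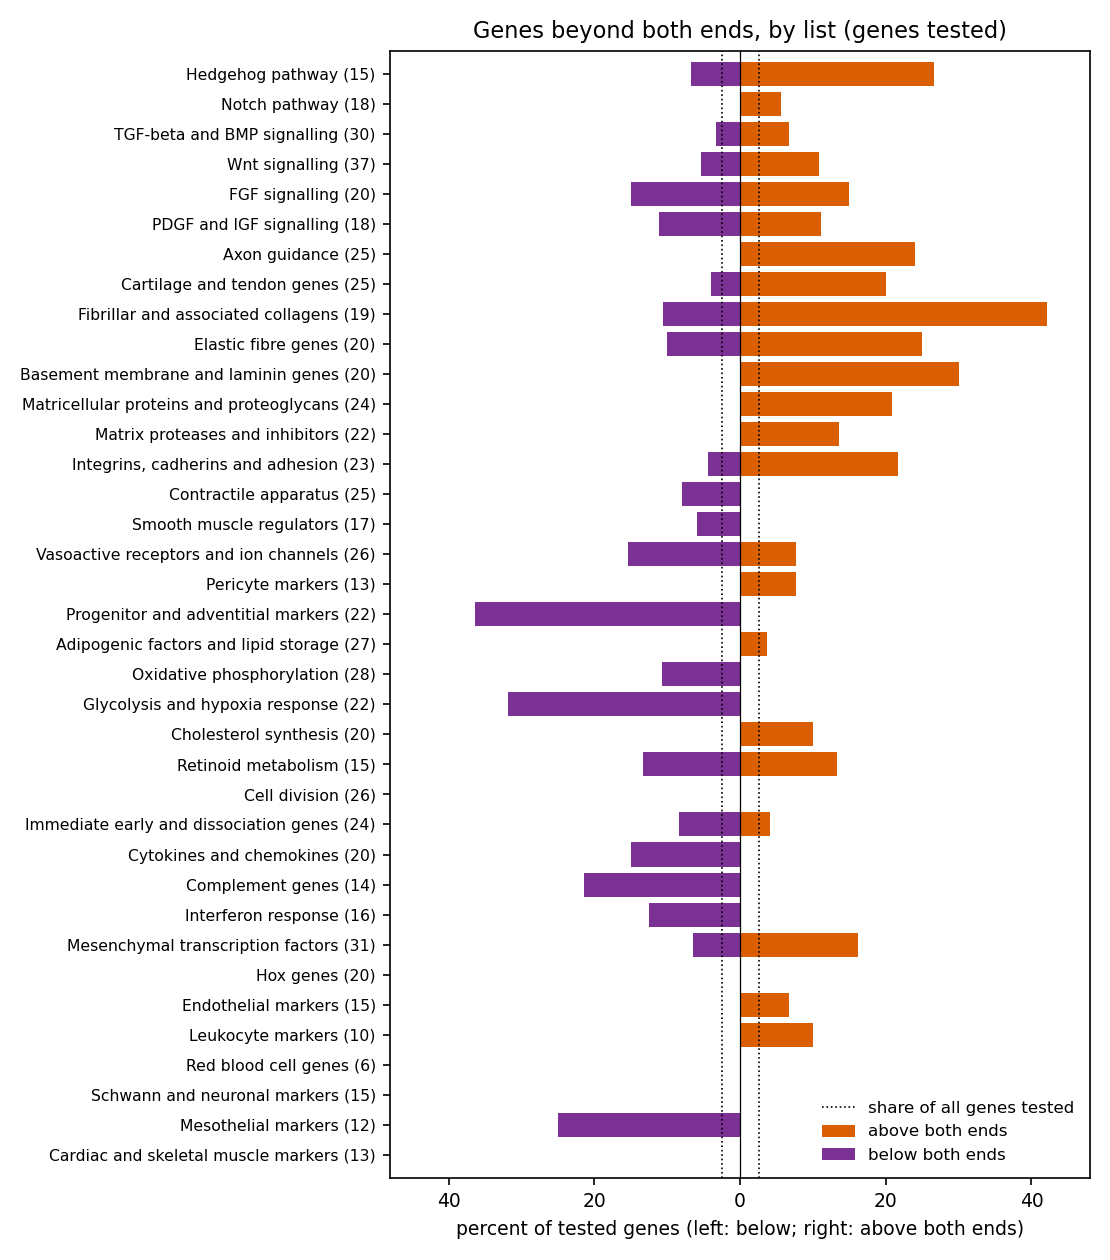
For each of the 37 gene lists, bars show the percent of its tested genes (number in parentheses) called above both ends (right) and below both ends (left), with dotted lines at the shares over all genes (2.56% and 2.46%). Fibrillar collagens (8 of 19) and basement membrane genes (6 of 20) reach furthest right, progenitor markers (8 of 22) and glycolysis genes (7 of 22) furthest left.

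Contractile genes and smooth muscle regulators had no members above both ends, which in lists of this size is near the share over all genes. That share was 2.56% above and 2.46% below, and the counts that follow stand beside it. Of 25 contractile genes none was above and 2 were below, Des (desmin) at 10.6 to 14.2, 1.74 to 2.63 and 16.5 to 19.9 CPM and Hspb1, a small heat shock protein, at 58.9 to 64.7, 17.1 to 23.3 and 138.9 to 203.6 CPM. The other contractile members lay between the ends or were not called, with medians of 2.08 over progenitor and -2.29 against smooth muscle. Of 17 smooth muscle regulators only Tbx18 was called, below both at 18.9 to 26 CPM against 32.1 to 36.1 and 48.5 to 49.8. Of 13 pericyte markers only Ndufa4l2 was called above, at 19.1 to 24.1 CPM against 10.8 to 12.5 and 11.9 to 17.4. That call was lost without intermediate 2 or 3 or smooth muscle 1 or 2 (0.43 to 0.59 from the nearer end) and with library size alone. Vasoactive receptors and channels had 2 above and 4 below of 26. Ednra, the endothelin A receptor of smooth muscle, was above at 235.4 to 258.2 CPM against 85 to 102.2 and 87.3 to 131.3, an excess of 1.16 ± 0.13 over the nearer end. Agtr1a, the angiotensin II receptor, was below at 10.7 to 13.2 CPM against 37.3 to 42.1 and 20.5 to 23.8, and Avpr1a, a vasopressin receptor, at 2.09 to 3.22 CPM against 18.6 to 20.8 and 9.3 to 13.2.

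The remaining lists had few or no members beyond both ends, and their counts are to be read beside 2.56% of all genes above and 2.46% below. Adipogenic and lipid storage genes had 1 above (Fasn, lost with library size alone) of 27, and cholesterol synthesis 2 above (Msmo1 and Insig1) of 20. Insig1 was not called without any 1 of 7 libraries (intermediate 1, 2 or 3, progenitor 1 or 3, smooth muscle 1 or 2; 0.27 to 0.45 from the nearer end). Msmo1 was at 50.4 to 50.7, 71.6 to 76.3 and 50.5 to 56.3 CPM, and with library size alone its difference from the nearer end turned to -0.03. Immediate early and dissociation genes had 1 above (Fosb) and 2 below (Fosl1 and Atf3) of 24, with Atf3 at 1069 to 1076, 413.6 to 486.4 and 699.5 to 913.5 CPM. With library size alone Fosb was not called (0.20 from the nearer end), and the list had none above and 4 below. On that scale 1.53% of all genes lay above and 9.9% below. None of 26 cell division genes, 20 Hox genes, 6 red blood cell genes, 15 Schwann and neuronal markers or 13 cardiac and skeletal muscle markers was called beyond both ends. In lists of these sizes that is near the share over all genes and says little about them. Endothelial markers had 1 above of 15, Erg, at 6.79 to 9.86 CPM against 0.131 to 1.04 and 2.87 to 3.6, lost with library size alone. The defining endothelial markers Pecam1 (15.2 to 25.6 CPM) and Cdh5 (2.26 to 6.41) were not at 0 in intermediate libraries, and the list summed to 92.6 to 197.4 CPM by library size. Leukocyte markers had 1 above of 10, Cd3e, lost without intermediate replicate 3 (0.67) or progenitor replicate 3 (0.73), while Ptprc was at 1.02 to 3.6 CPM in intermediate libraries.

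Against the equal-weight log midpoint of both ends, 2834 genes (14.1%) were higher and 2784 (13.8%) lower. A linear blend lies above the log midpoint, so this contrast alone does not set a gene outside a blend, and 352 of the genes above the log midpoint were at or below the linear one. Among genes not beyond both ends, Ly6a had the largest deficit of those at a mean of at least 16 CPM, at -3.97 ± 0.20. Ly6c1 was at -3.45 ± 0.18. Ly6c1 was at 185 to 225.8, 1.37 to 1.52 and 1.04 to 1.45 CPM. Krt18, Lrrn4 and Pard6b were at -3.47 ± 0.31, -3.45 ± 0.41 and -3.42 ± 0.37. All 3 were high in the smooth muscle libraries alone, Krt18 at 66.8 to 125.8 CPM against at most 5.25 elsewhere, and Krt18 and Lrrn4 are on the mesothelial list. Large excesses were those of Vwf (2.71 ± 0.51), Ptprb (2.33 ± 0.26), Ier5l (2.21 ± 0.51) and Clca3a2 (2.11 ± 0.31). Vwf and Ptprb are endothelial genes, and Vwf varied from 15.8 to 86.9 CPM within intermediate and from 16 to 78.5 CPM within smooth muscle libraries.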

How the data were processed

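Poly(A) RNA of cells sorted from the aorta and perivascular fat was made into libraries by SMART-Seq v4 chemistry, per the labels' protocols. The submitters' processing notes list STAR 2.5.2a, DESeq2 1.26.0 and mm10. How reads were counted, and whether by strand, is not stated there or in the labels. The table used holds raw counts per gene and library as deposited by the authors; their normalized tables were not used. Of 36512 identifiers, 36480 were named with GENCODE M21.

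Groups came from the sample titles. filterByExpr kept 20122 genes, with 99.25% to 99.85% of each library's counts. After TMM scaling, tests were run in edgeR 4.0.16 (R 4.3.3; glmQLFit, glmQLFTest) in 1 model over 9 libraries (common biological coefficient of variation 0.127). Contrasts compared intermediate with each end and with the midpoint (weight 0.5 each), two-sided, with Benjamini-Hochberg adjustment at 0.05. For genes beyond both ends the larger of the 2 p-values was adjusted where both signs agreed and set to 1 otherwise. Fold changes are log2 with SE. The position used a prior count of 2 on log2 CPM. The fit and the calls were tested on simulated data.

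The members and lists were chosen with earlier results of these data known. The 37 lists had 783 entries, 779 of them in the table and 753 tested. Genes named were the 15 with the largest change from the nearer end in each direction among genes also called with library size alone, with no overlap of libraries and a mean of at least 16 CPM (in intermediate libraries for genes above, in both ends for genes below), without predicted genes; up to 4 members with the smallest p of each list; all Hedgehog and Notch members called; 10 markers as the check of labels; and the 5 largest midpoint changes each way, at a mean of at least 16 CPM, among genes not beyond both ends. Smo, Eln, Msln, Upk3b, Pecam1 and Ptprc were added after their values were seen. One gene that the rule names is not reported here.

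Replicate pairs differed beyond sampling noise (chi-square divided by degrees of freedom, 4.37 to 14.1). The limit for a count of 0 uses 3 counts and covers only counting error, as there were no molecular identifiers. Alternatives were DESeq2-type size factors, library size alone, DESeq2 1.42.0, limma-voom (limma 3.58.1) with quality weights, no filter, at least 5 CPM in 3 libraries, all 12 libraries in the fit, a replicate block, glmTreat at 1.5-fold, each comparison at its own adjusted p, other minimum folds (2 and 16) and a prior count of 0.5 for the position, and leaving out each library.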

Additional observations from a re-analysis of the deposited data

How the results depend on the processing

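Counts above and below the midpoint were 2834 and 2784, and those above and below both ends 516 and 495. With library size alone they were 1380, 6456, 308 and 1993, and with all 12 libraries in the fit 1762, 1801, 233 and 260, of which 233 and 259 were among the 516 and 495. With each comparison at its own adjusted p, 877 lay above and 869 below both ends, and with glmTreat at 1.5-fold 122 and 158. Leaving out 1 library at a time gave 2130 to 2834 above and 1794 to 2661 below the midpoint, and 376 to 518 above and 323 to 477 below both ends; the lowest counts below, 1794 and 323, came without intermediate replicate 2. The linear position of genes higher in progenitor libraries, 0.77, was 0.72 at a minimum of 2-fold, 0.92 at 16-fold and 0.74 to 0.78 with 1 library left out. The log2 position of 0.45 ran from 0.39 to 0.54 over its alternatives. Counts with DESeq2-type size factors, DESeq2, limma-voom, no filter and the 5 CPM filter stayed within 1.5 times. Of 116 named genes called beyond both ends, 83 kept their side and call under each alternative run gene by gene, which did not include glmTreat or each comparison at its own adjusted p. With library size alone 102 did, 13 were no longer called, and Msmo1 reversed at -0.03. The cause of these shifts was not tested.

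Replicate numbers did not pair the samples: correlations of same-numbered libraries' deviations were -0.178 to 0.14. With the replicate block the counts were 2685 and 2642 from the midpoint and 497 and 481 beyond both ends, of which 476 and 461 were among the 516 and 495. At this depth a count of 0 does not tell absence from a level of up to 0.256 CPM.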
